A study of Mus musculus with 2 samples.

Results

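The transcripts of the mouse mitochondrial genome were examined in 2 total RNA libraries of the left cerebral cortex. Members were all genes whose symbol starts with mt-, which gave 37 of the 55536 annotated genes. They comprised 2 ribosomal RNA (rRNA) genes, 13 messenger RNA (mRNA) genes and 22 transfer RNA (tRNA) genes. The nuclear pseudogenes Gm28661, Gm10925 and Gm28437, which copy mt-Co2, mt-Atp6 and mt-Co3, were set beside them.

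The mitochondrial genome is a small circle of DNA present in many copies per cell and inherited from the mother. Both of its strands are transcribed by the RNA polymerase Polrmt into long precursors, from which the tRNAs that punctuate the sequence are excised, releasing the rRNAs and mRNAs between them. All its proteins are membrane subunits of the respiratory chain or the ATP synthase, which make most of the ATP that neurons use for ion pumping and synaptic transmission. Pieces of mitochondrial DNA have repeatedly been inserted into the nuclear chromosomes, and a recent insertion can be nearly identical to its source.

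The animals were males of the hybrid strain B6CASTF1/J, 10 days old and supplied by The Jackson Laboratory, and 300 ng of RNA went into each library. They carried no engineered allele and received no treatment per the labels, and the 2 libraries form 1 group, so no comparison between groups and no test was possible. The labels number them as separate biological replicates from separately numbered animals, but give both the same donor identifier. The label of the ERCC spike-ins (synthetic RNAs added in known amounts) refers to libraries depleted of ribosomal RNA. Mitochondrial rRNA values therefore describe what was left after that step, and the labels do not say whether it also acts on mitochondrial rRNA. Apart from the strain name, the labels do not say which parent strain was the mother. The strain of the mitochondrial genome was not checked, and the gene models are those of the C57BL/6J reference.

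The expected counts, read numbers that the quantification divides among records, summed to 31254528 for replicate 1 and 30218308 for replicate 2. The estimated counts of the tables made with an index summed to 32163866 and 30950881. All 5 neuronal markers listed were detected in both libraries, with a summed level of 1878 and 1892 TPM (transcripts per 1000000 transcripts, a level normalised for length). Markers of other tissues were also present and are given beside the comparison of the libraries.

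The sequences of the mt-Co2, mt-Atp6 and mt-Co3 records and their copies are shown first, because they decide which record a read can be assigned to. All coordinates are in mm10, and sequences are GENCODE M21 transcript records read 5′ to 3′. Each line gives the last bases of a record, and capitals mark the mitochondrial bases that lie past the end of the copy. The mt-Co2 stretch is chrM:7637-7696 on the plus strand, and its counterpart in Gm28661 is chr1:24614885-24614941 on the minus strand.
mt-Co2: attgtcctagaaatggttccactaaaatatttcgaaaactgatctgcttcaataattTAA
Gm28661: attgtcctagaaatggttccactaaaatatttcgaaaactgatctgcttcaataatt
The mt-Atp6 stretch is chrM:8548-8607 on the plus strand, and that of Gm10925 is chr1:24613974-24614030 on the minus strand.
mt-Atp6: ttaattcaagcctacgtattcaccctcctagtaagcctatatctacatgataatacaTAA
Gm10925: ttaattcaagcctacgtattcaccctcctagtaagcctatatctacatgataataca
The mt-Co3 stretch is chrM:9331-9390 on the plus strand, and that of Gm28437 is chr1:24613189-24613247 on the minus strand.
mt-Co3: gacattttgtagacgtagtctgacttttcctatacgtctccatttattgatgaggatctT
Gm28437: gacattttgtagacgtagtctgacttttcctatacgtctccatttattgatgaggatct
In mt-Co2 and mt-Atp6 the capitals are the stop codon. In mt-Co3 the capital is the single T of a stop codon that the added poly(A) tail completes.

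Gm28661 matched the first 681 of the 684 bases of mt-Co2 with no mismatch. Gm10925 matched the first 678 of 681 bases of mt-Atp6, and Gm28437 the first 783 of 784 bases of mt-Co3, again with no mismatch. A search of all annotated transcripts found 4 further copies at 99% identity or more, chosen after their values were seen. They were Gm29216 (mt-Co1 from base 1063), Gm28438 (mt-Nd3), Gm10222 (mt-Nd4l) and Gm28439 (the first 876 of the 1378 bases of mt-Nd4). All 7 copies are annotated as unprocessed pseudogenes on the minus strand of chromosome 1 and lie between chr1:24611535 and chr1:24616197, a span of 4663 bases. They follow each other in the order of their mitochondrial genes, and 5 of the 7 were exact substrings of them.

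The other 2 copies each differed from their gene by 1 base within the alignment. Positions are counted from 1 at the 5′ end of the mitochondrial record, the mitochondrial base comes first, and capitals mark it below. The substitution between mt-Co1 and Gm29216 was A1066T, at chrM:6381-6423 on the plus strand and chr1:24616155-24616197 on the minus strand. The first 9 bases of the Gm29216 record lie outside the alignment, and some of them also differ from mt-Co1 but are left in lower case.
mt-Co1: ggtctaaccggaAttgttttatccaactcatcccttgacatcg
Gm29216: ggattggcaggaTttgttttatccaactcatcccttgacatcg
The substitution between mt-Nd3 and Gm28438 was T3C, at chrM:9459-9491 on the plus strand and chr1:24613087-24613119 on the minus strand.
mt-Nd3: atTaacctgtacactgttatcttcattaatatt
Gm28438: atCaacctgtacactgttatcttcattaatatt

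The share of 100-base windows that occur unchanged in another annotated transcript measures how far a record can be told from its copies. That share was 99.5% in mt-Co2, 99.5% in mt-Atp6, 99.9% in mt-Co3, 97.6% in mt-Nd3 and 98.5% in mt-Nd4l. It was 60.8% in mt-Nd4, 30.8% in mt-Co1 and 3.19% in mt-Nd2. It was 0 in both rRNAs and in the other 5 mRNAs, mt-Nd1, mt-Atp8, mt-Nd5, mt-Nd6 and mt-Cytb. The values of these 7 records therefore rest on windows that no other annotated transcript shares. The last 43 bases of mt-Atp8 do match the start of Gm10925, and nuclear sequence outside annotated transcripts was not searched.

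In the deposited expected counts the larger part of each of the 3 pairs was assigned to the nuclear record. mt-Co2, the copper-binding subunit of cytochrome c oxidase that receives electrons from cytochrome c, held 1718 expected counts in replicate 1 and 1589 in replicate 2. Gm28661 held 75007 and 64940, which was 97.8% and 97.6% of the pair. The libraries were alike in this division, with a mean of 97.7% ± 0.105 (SD, n = 2).

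mt-Atp6, the proton-channel subunit of the ATP synthase, held 28846 and 25800 expected counts against 61818 and 52293 for Gm10925. The copy's share was 68.2% and 67.0%. mt-Co3, a core membrane subunit of cytochrome c oxidase, held 26769 and 12020 expected counts against 48765 and 57504 for Gm28437. Its copy's share was 64.6% in replicate 1 and 82.7% in replicate 2, a wider spread than in the other pairs (mean 73.6% ± 12.8, SD, n = 2). While the mt-Co3 record was lower in replicate 2 and its copy higher, the sum of the pair was 75534 and 69524.

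The division depended on how counts were assigned. The gene tables also hold posterior mean counts, a second estimate deposited beside the expected counts. These put 85.3% and 83.2% of the mt-Co2 pair, 63.5% and 61.1% of the mt-Atp6 pair and 51.2% and 59.4% of the mt-Co3 pair on the copy. The estimated counts from the index put 87.7% and 88.3% on Gm28661, 30.7% and 30.0% on Gm10925, and 51.2% and 52.1% on Gm28437. The direction of the mt-Atp6 pair thus differed between quantifications, since its copy held the larger part of the expected counts and the smaller part of the estimated counts. The sum of the pair differed as well, with 90664 and 78093 expected counts against 54461 and 47555 estimated counts for mt-Atp6.

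**Figure D1:**
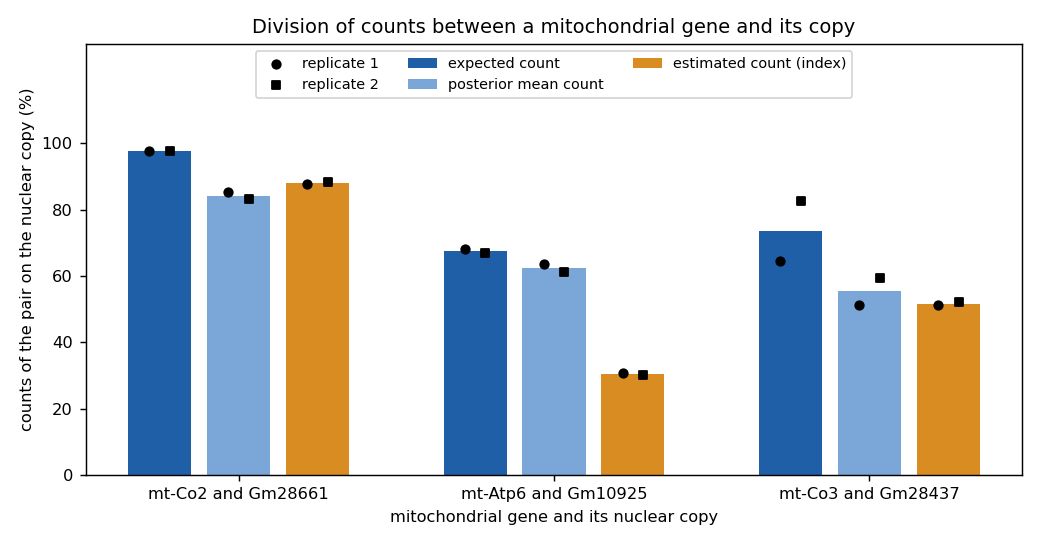
Percent of the counts of each pair assigned to the nuclear copy (y axis) for the pairs of mt-Co2, mt-Atp6 and mt-Co3 (x axis) in 3 deposited quantities; bars are means of 2 libraries and points are single libraries. The mt-Co2 pair is above 83% on the copy throughout, and the mt-Co3 pair differs between libraries in the expected counts (64.6% and 82.7%).

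The further copies behaved differently from each other. Gm29216 held 14396 and 13557 expected counts, or 8.52% and 9.26% of its sum with mt-Co1, and 2330 and 1397 estimated counts. Gm28439 held 0 expected counts in both libraries but 2982 and 1074 estimated counts. Gm28438 was at 0 in both libraries in both quantities. Gm10222 held 0.01 and 0 expected counts and no estimated counts, although its record lacks only the last 3 bases of mt-Nd4l, and its posterior mean counts were 513 and 529. Of the 5 exact copies, 3 thus held most of the expected counts of their pair, and Gm10222 and Gm28439 held almost none. Levels of the affected genes are given below both for the mitochondrial record alone and with the 3 copies named by the rule added.

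The mitochondrial records together held 6.34% of expected counts in replicate 1 and 5.52% in replicate 2 (mean 5.93% ± 0.58, SD, n = 2). With the 3 copies added the share was 6.93% and 6.10%. The rRNAs held most of it, 4.87% and 4.26% of the libraries, which was 76.9% and 77.2% of the mitochondrial counts. With the copies added the rRNA part was 70.3% and 69.9%. The mRNAs held 1.46% and 1.26% of the libraries alone, and 2.06% and 1.84% with the copies. The exact 95% interval of the total in replicate 1, which covers counting error only, was 6.33% to 6.35%. The mitochondrial share of TPM, a quantity scaled by length, was 8.49% and 7.40% in the gene tables and 12.8% and 11.3% in the index tables.

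Levels of single genes are CPM per kb, the expected count per 1000000 counts of the library, divided by the annotated length in kilobases. mt-Rnr2, the large-subunit rRNA of the mitochondrial ribosome, was at 22478 and 19657 CPM per kb. mt-Rnr1, the small-subunit rRNA, was at 13805 and 12040 CPM per kb. The ratio of the large to the small rRNA was 1.63 ± 0.0031 (SD, n = 2) per kilobase, although the ribosome holds them in equal number. That ratio was 1.56 in the deposited TPM and 2.21 in estimated counts per kilobase, so its size depended on the quantification while its direction did not. mt-Rnr2 was 6.97 ± 0.084 (SD, n = 2) times the level of mt-Co1 per kilobase.

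The 3 cytochrome c oxidase (complex IV) genes encode its catalytic core. mt-Co1, which holds the haem and copper site where oxygen is reduced, was at 3200 and 2846 CPM per kb. mt-Co2 was at 80.4 and 76.9 CPM per kb alone and at 3589 and 3219 with Gm28661. mt-Co3 was at 1092 and 507 CPM per kb alone and at 3083 and 2935 with Gm28437. Alone, mt-Co1 was 38.4 ± 1.97 (SD, n = 2) times mt-Co2 in expected counts per kilobase, 9.66 ± 0.260 times in estimated counts per kilobase and 6.19 ± 0.0667 times in index TPM. With the copies added they lay between 2846 and 3589 CPM per kb, and mt-Co2 was 1.13 times mt-Co1. In estimated counts per kilobase that order turned, with mt-Co2 and its copy at 0.863 times mt-Co1.

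The ATP synthase genes mt-Atp8 and mt-Atp6 share 1 transcript and overlap by 43 bases on the same strand. Capitals mark the shared bases in the last part of the mt-Atp8 record, chrM:7890-7969 on the plus strand, and the first of them are the start codon of mt-Atp6.
mt-Atp8: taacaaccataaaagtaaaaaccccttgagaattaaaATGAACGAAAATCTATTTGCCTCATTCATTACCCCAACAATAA
mt-Atp8, a small subunit of the membrane part, was at 631 and 514 CPM per kb. mt-Atp6 was at 1355 and 1254 CPM per kb alone and at 4260 and 3795 with Gm10925. With its copy, mt-Atp6 was 7.07 ± 0.441 (SD, n = 2) times mt-Atp8 per kilobase and 4.27 ± 0.266 times in TPM. The difference between these ratios comes from the length term, since TPM uses an effective length of 105 bases for the 204-base mt-Atp8 record. mt-Atp6 also shares 1 base with mt-Co3, and the labels and headers do not say how reads in the overlaps were divided.

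mt-Cytb, the only mitochondrial subunit of complex III and the one that holds its quinone sites, was at 1765 and 1546 CPM per kb. Neither that record nor mt-Nd1 shares a 100-base window with another transcript.

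The 7 complex I (NADH dehydrogenase) genes encode the proton-pumping membrane arm. mt-Nd1, at the junction with the peripheral arm, was at 1750 and 1520 CPM per kb. mt-Nd4 was at 1005 and 903, and mt-Nd4l, which shares its transcript and 7 bases with mt-Nd4, was at 840 and 704 CPM per kb. mt-Nd5 was at 762 and 660, mt-Nd2 at 726 and 630, and mt-Nd3 at 614 and 538 CPM per kb. All 6 genes were above mt-Nd6 in both libraries in these expected counts. In estimated counts per kilobase, mt-Nd4l (2.62 and 0.544) was below mt-Nd6 (64.9 and 50.5) in both libraries. mt-Nd3 (196 and 1.02) was below it in replicate 2 only.

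mt-Nd6 is the only one of the 13 mRNA genes on the minus strand of the reference, where 8 of the 22 tRNA genes also lie. It was at 102.2 and 86.8 CPM per kb. mt-Nd5, its neighbour on the opposite strand, was 7.53 ± 0.105 (SD, n = 2) times its level per kilobase, and mt-Co1 was 32.1 ± 1.06 times its level. In estimated counts per kilobase these ratios were 11.3 ± 0.900 and 54.1 ± 5.72, and in index TPM 4.95 ± 0.288 and 24.7 ± 2.11. mt-Nd6 was lower than mt-Nd5 and mt-Co1 in each quantity, and the size of the difference depended on the quantification. The labels and headers give no strand setting for the quantification. The records of mt-Nd5 and mt-Nd6 overlap by 14 bases, and if strand was not used, reads of mt-Nd6 cannot be told apart from reads of the opposite precursor.

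The sequences of these neighbours show the strand asymmetry of the genome. Both lines give the first 60 bases of a record, with every G in capitals, at chrM:14011-14070 on the minus strand for mt-Nd6 and chrM:11742-11801 on the plus strand for mt-Nd5.
mt-Nd6: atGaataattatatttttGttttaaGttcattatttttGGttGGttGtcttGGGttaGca
mt-Nd5: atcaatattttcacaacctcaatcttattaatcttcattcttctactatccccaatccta
The mt-Nd6 stretch held 12 G and the mt-Nd5 stretch 0. Over whole records mt-Nd6 held 28.1% G and 5.97% C. The other 12 mRNA records held 5.88% to 16.1% G and 22.1% to 30.0% C, so the composition of mt-Nd6 lay outside their range in both bases. Other features also follow the known mitochondrial code: 4 of the 13 mRNA records begin with a codon other than ATG (GTG in mt-Nd1, ATA in mt-Nd2, ATT in mt-Nd3 and ATC in mt-Nd5), and 3 end in an incomplete stop codon (mt-Co3, mt-Nd4 and mt-Cytb).

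**Figure D2:**
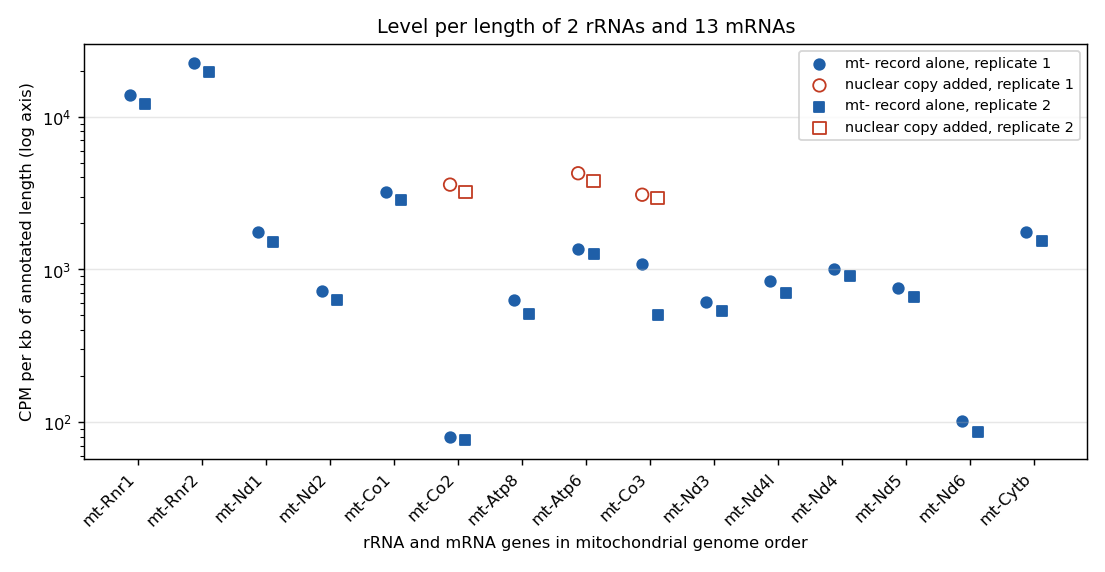
Level in CPM per kb of annotated length from expected counts (y axis, log scale) of the 2 rRNA and 13 mRNA genes in the order of the mitochondrial genome (x axis) in each of 2 libraries; filled symbols are the mitochondrial record alone and open symbols the sum with its nuclear copy. Adding the copy moves mt-Co2 from 80.4 to 3589 CPM per kb in replicate 1, and mt-Nd6 is then the lowest mRNA.

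With the 3 copies added, the order of the mRNAs by expected counts per kilobase was mt-Atp6, mt-Co2, mt-Co1, mt-Co3, mt-Cytb, mt-Nd1, mt-Nd4, mt-Nd4l, mt-Nd5, mt-Nd2, mt-Nd3, mt-Atp8 and mt-Nd6. It was the same in both libraries for 9 of the 13 genes. mt-Co1 and mt-Co3 exchanged places between libraries, as did mt-Nd3 and mt-Atp8. The values of neighbours in this order overlapped over the libraries in 5 places: mt-Co1 and mt-Co3, mt-Cytb and mt-Nd1, mt-Nd4l and mt-Nd5, mt-Nd5 and mt-Nd2, and mt-Nd3 and mt-Atp8. The highest mean level was 42.6 times the lowest, and 7.03 times with mt-Nd6 left out. For the records alone mt-Co1 was first and mt-Co2 last, below mt-Nd6. In deposited TPM with the copies added, 13 of 13 genes kept their rank between libraries. Estimated counts per kilobase with the copies placed mt-Co1 first (3089 CPM per kb in the mean), then mt-Co2 (2666) and mt-Atp6 (2371), and index TPM placed mt-Co2 first. The highest level was 1954 times the lowest above 0 in estimated counts and 726 times in index TPM, the lowest being mt-Nd4l in both, with mt-Atp8 at 0. Deposited TPM of the gene tables placed mt-Nd4l and mt-Atp8 above mt-Nd4, whose CPM per kb was higher.

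Among the rRNA and mRNA records, the estimated counts fell furthest below the expected counts in the short ones. mt-Atp8 held 4021 and 3171 expected counts and 0 estimated counts in both libraries. mt-Nd4l held 7794 and 6317 expected counts and 25 and 5 estimated counts. mt-Nd3 held 6683 and 5655 expected counts, against 2196 estimated counts in replicate 1 and 11 in replicate 2. These are the 3 mRNA records of 400 bases or fewer, and mt-Atp8 and mt-Nd4l cannot be read as absent from the index tables given their expected counts.

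In the 8 records over 900 bases the estimated count was 0.792 to 1.08 times the expected count. mt-Nd6, with 519 bases, was at 0.653 and 0.596 times. The records of intermediate length with an exact copy were above 1, with mt-Co2 at 4.39 and 3.97 times, mt-Atp6 at 1.31 and 1.29 times, and mt-Co3 at 1.08 and 2.17 times. For mt-Co3 the change between libraries lay in the expected count, since its estimated counts were 28863 and 26086.

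**Figure D3:**
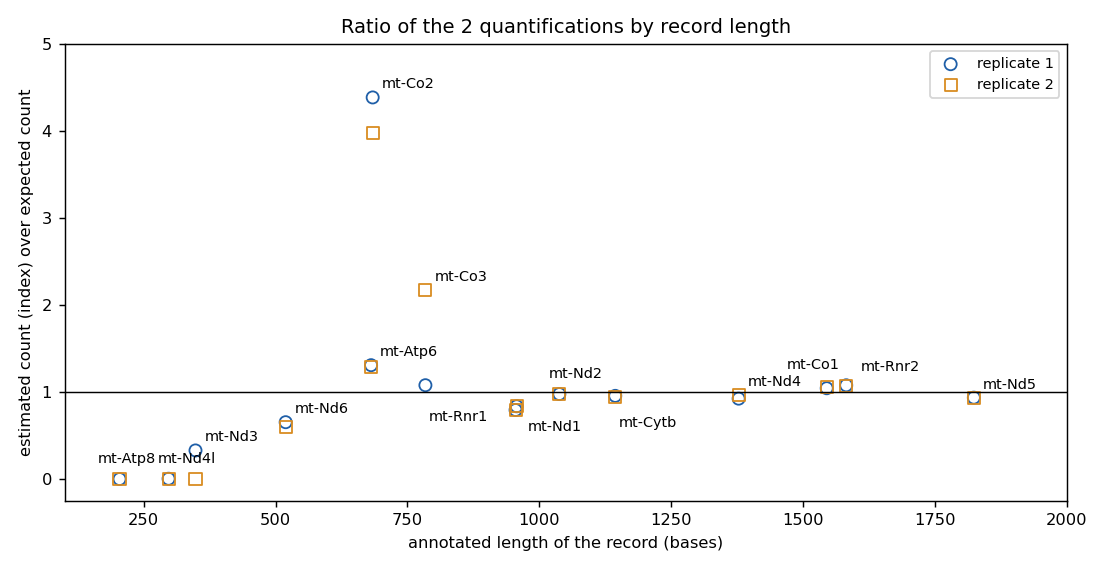
Estimated count from the index over expected count (y axis) against annotated record length in bases (x axis) for the 15 rRNA and mRNA records in each of 2 libraries; the line marks equal counts. Records over 900 bases lie between 0.792 and 1.08, records of 400 bases or fewer between 0 and 0.329, and mt-Co2 is at 4.39 and 3.97.

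All 22 tRNA genes were at 0 in both libraries in expected counts and in estimated counts. On the plus strand these were mt-Tf, mt-Tv, mt-Tl1, mt-Ti, mt-Tm, mt-Tw, mt-Td, mt-Tk, mt-Tg, mt-Tr, mt-Th, mt-Ts2, mt-Tl2 and mt-Tt. On the minus strand they were mt-Tq, mt-Ta, mt-Tn, mt-Tc, mt-Ty, mt-Ts1, mt-Te and mt-Tp. The shortest and the longest are shown for the range of record lengths, mt-Ts2 at chrM:11613-11671 and mt-Tl1 at chrM:2676-2750, both on the plus strand.
mt-Ts2: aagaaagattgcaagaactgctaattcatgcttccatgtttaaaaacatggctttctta
mt-Tl1: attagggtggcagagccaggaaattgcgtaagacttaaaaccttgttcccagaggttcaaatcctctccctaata
The tRNA records are 59 to 75 bases long. The effective length deposited in the gene tables is the length minus 99 bases, and it is 0 for each of them. None of the 2398 annotated genes under 100 bases held a count in either quantification. The zeros of the tRNAs are therefore those of every record of that length, and they give no limit on tRNA abundance. The cause of these zeros was not tested.

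The libraries were compared by the ratio of CPM in replicate 2 to replicate 1, with a 95% interval from the binomial split of the 2 counts that covers counting error only. All 15 rRNA and mRNA genes were lower in replicate 2, where 41.9% of the 16728 genes with a mean count of 20 or more were lower. Their median log2 ratio was -0.20 against 0.03 over those genes. Among the 5667 genes with a mean count of 1000 or more, a level every one of the 15 exceeds, 44.3% were lower in replicate 2, the median was 0.01 and the central 90% ran from -0.12 to 0.15. In bulk tissue, fewer cells rich in mitochondria and less mitochondrial RNA per cell cannot be told apart. Nor can either be told apart from a difference between the libraries in dissection or preparation.

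The rRNAs moved together, with ratios of 0.872 for mt-Rnr1 and 0.874 for mt-Rnr2. Among records with no shared window, the ratio was 0.869 for mt-Nd1, 0.866 for mt-Nd5, 0.876 for mt-Cytb, 0.849 for mt-Nd6 and 0.816 for mt-Atp8. It was 0.868 for mt-Nd2, 0.890 for mt-Co1, 0.899 for mt-Nd4, 0.875 for mt-Nd3 and 0.838 for mt-Nd4l. mt-Nd6, the mRNA of the minus strand, lay within the range of the plus-strand records. The interval lay wholly below 1 for 14 of the 15 genes, the exception being mt-Co2 at 0.956 (0.893 to 1.02). These intervals cover counting error only and narrow as counts rise. No share of all genes with such an interval is given, so this count does not set the 15 genes apart.

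A fold change of 1.2 was passed by 2 of the 15 genes, mt-Atp8 and mt-Co3, both lower in replicate 2. Over all genes with a mean count of 20 or more the share past that fold was 16.1% in either direction and 5.82% in the lower direction, and over those with a mean count of 1000 or more it was 1.02% in either direction. mt-Co3 had the lowest ratio, 0.464 (0.454 to 0.475), while its copy Gm28437 was at 1.22 and the pair at 0.952. With the copies added only mt-Atp8 was past the fold, mt-Co2 was at 0.897 and mt-Atp6 at 0.891, so the low value of mt-Co3 was not seen in the sum with its copy. In estimated counts, 13 of the 13 rRNA and mRNA genes with a mean of 20 or more were lower in replicate 2, where 42.8% of the 18077 genes past that minimum were lower. Past the fold were 2 of the 13, mt-Nd3 and mt-Nd6, against 17.6% of those genes. mt-Nd4l, with 25 and 5 estimated counts, is under the minimum.

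**Figure D4:**
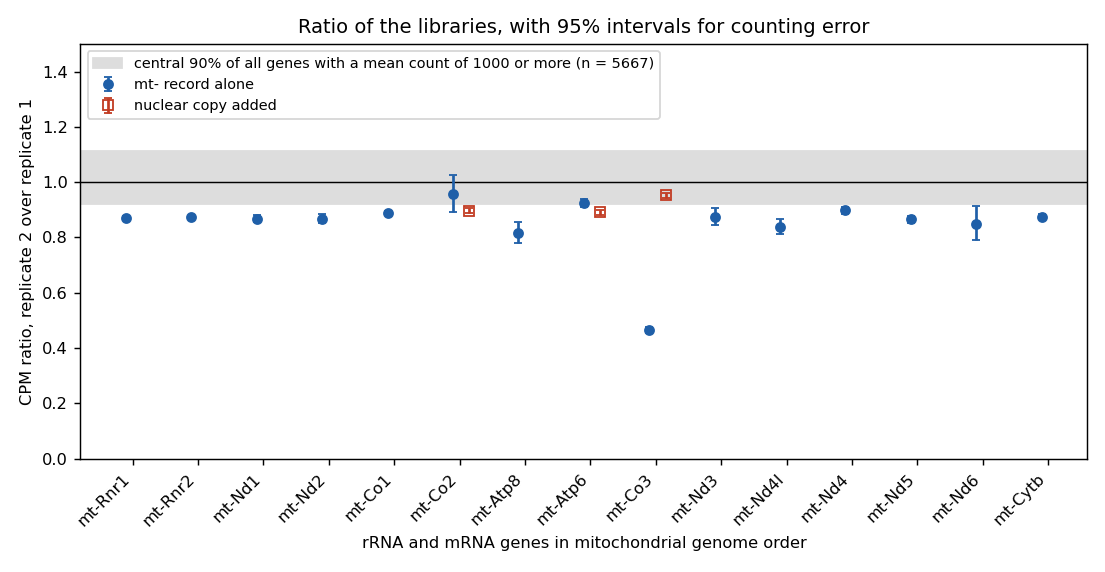
Ratio of CPM in replicate 2 to replicate 1 (y axis) for the 15 rRNA and mRNA genes in genome order (x axis), with 95% intervals for counting error; the grey band holds the central 90% of 5667 genes with a mean count of 1000 or more. Most genes lie between 0.816 and 0.899, and mt-Co3 is at 0.464 alone and 0.952 with its copy.

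Markers of other tissues also differed between the libraries, each list taken whole. All 3 erythroid markers were lower in replicate 2, with a summed level of 1152 and 798 TPM. All 5 striatal markers were lower (95.9 and 59.6 TPM in sum), and all 4 choroid plexus markers were higher (8.97 and 311 TPM), led by Ttr, the thyroid hormone carrier, at 7.35 and 303.5 TPM. Of all genes with a mean count of 20 or more, 41.9% were lower in replicate 2. In the other marker lists, 4 of 5 neuronal and 2 of 5 astrocyte markers were lower. So were 2 of 4 markers of the oligodendrocyte lineage, 2 of 3 of microglia and 1 of 3 of endothelium. No marker in any of these lists was at 0 in both libraries. The part of the erythroid, striatal and choroid plexus differences in the lower mitochondrial values was not tested. Under each of the other scalings of the libraries that were tried, all 15 genes were lower in replicate 2 and 2 or 3 were past the fold, with a median log2 ratio from -0.18 with spike-ins to -0.22 with DESeq2 size factors.

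The nuclear genome encodes the partners of these subunits, and their levels were set beside them in TPM. The median of the 7 mitochondrial complex I genes was 1308 and 1153 TPM, against 101.3 and 97.4 TPM for 7 nuclear core subunits. The mitochondrial median was 12.4 ± 0.760 (SD, n = 2) times the nuclear one. For complex III the ratio of mt-Cytb to the median of 4 nuclear subunits was 26.3 ± 2.28. For complex IV it was 18.7 ± 0.143 with the copies added and 4.95 ± 2.44 without them, against 5 nuclear subunits led by Cox4i1. For the ATP synthase it was 16.02 ± 1.39 with the copy and 7.24 ± 0.619 without it, against 4 nuclear subunits led by Atp5b. In all 4 complexes the mitochondrial median, in complex III mt-Cytb alone, was above the nuclear one. The size of the excess in complex IV and the ATP synthase depended on where the copies' counts were placed. The mt-Co2 record alone, at 143 and 138 TPM, was below all 5 nuclear complex IV subunits listed.

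Between the libraries, the median log2 ratio of the nuclear partners was -0.07 for the complex I list, -0.01 for complex III, -0.01 for complex IV and -0.04 for the ATP synthase. Of these 20 nuclear genes 15 were lower in replicate 2, where the share was 41.9% at a mean count of 20 or more and 44.3% at 1000 or more. None of the 20 was past the 1.2-fold threshold, against 16.1% and 1.02% of genes at those minimums, so that count does not set the nuclear partners apart from other genes of their abundance.

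Genes that make, process and degrade mitochondrial RNA all reached at least 1 TPM in both libraries. The 10 genes of mitochondrial transcription had a median of 8.87 ± 0.527 TPM (SD, n = 2). Polrmt, the polymerase itself, was at 20.4 and 26.0 TPM, and Tfam, which packages mitochondrial DNA and activates its promoters, at 16.4 and 16.8 TPM. Mterf3, a regulator of mitochondrial transcription and ribosome assembly, was at 18.7 and 20.2 TPM, while Tfb1m, which methylates the small rRNA, and Mterf1b were lowest at 2.78 and 1.91 TPM in the mean. These levels are far below those of the transcripts they act on.

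The 14 processing genes had a median of 10.8 TPM. Fastk, which protects the mt-Nd6 mRNA, was highest at 49.1 and 39.5 TPM, followed in the mean by Trnt1, which adds the CCA end to tRNAs (25.2 TPM), and Tbrg4 (24.4 TPM). The lowest were 1110008L16Rik and Fastkd5, at 3.91 and 3.81 TPM. The 8 genes of stability and decay had the highest median of these lists, 29.4 TPM. Among them were the exonuclease Rexo2 at 47.5 and 48.4 TPM, Slirp, a partner of Lrpprc in stabilising mRNAs, at 44.4 and 42.5 TPM, and Grsf1, a protein of mitochondrial RNA granules, at 39.2 and 38.0 TPM. The helicase Supv3l1 (10.8 TPM) and the deadenylase Pde12 (4.87 TPM) were lowest in that list.

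The 7 replication genes had a median of 5.64 TPM, with the polymerase Polg at 41.3 and 40.5 TPM, Ssbp1, the single-strand binding protein, at 14.9 TPM in the mean and Top1mt, a topoisomerase, at 8.81 TPM. Primpol and Mgme1 were lowest, at 1.79 and 1.67 TPM. The 10 genes that modify rRNA and tRNA had a median of 8.61 TPM, from Trmu (17.6 TPM), Trit1 (11.8 TPM) and Mto1 (9.91 TPM) down to Mrm2 (4.68 TPM) and Nsun4 (3.91 TPM). Between the libraries, the median log2 ratio of the 5 lists ran from -0.06 for stability and decay to 0.18 for replication. Genes lower in replicate 2 were 7 of 10 in transcription, 7 of 14 in processing, 6 of 8 in stability and decay, 2 of 7 in replication and 4 of 10 in modification, where 41.9% of all genes with a mean count of 20 or more were lower. Past the fold were 1 gene each of processing, stability and decay, and modification in the lower direction, 2 of replication in the higher direction and 0 of transcription, against 16.1% of all such genes.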

How the data were processed

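Sequencing covered 2 total RNA libraries of 1 group, from left cerebral cortex. The gene tables deposited by the authors hold expected counts, posterior mean counts and TPM per gene, per the file headers. The tables made from the reads with an index hold estimated counts and TPM per transcript, per the file headers, and were summed by gene. The build is mm10 and the annotation GENCODE M21, per the deposited descriptions. The labels and headers name no aligner, program or strand setting. Column layouts and an effective length of the record length minus 99 bases were read from the files.

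CPM, level per kilobase, shares with Clopper-Pearson 95% intervals and ratios of the libraries were computed in Python 3.11.15 (scipy 1.17.1) and checked on simulated data. TMM factors came from edgeR 4.0.16 and size factors from DESeq2 1.42.0. Copies were found with BLAST 2.17.0 (word size 20, identity of 85% or more) among annotated transcripts. Genes entered the ratio at a mean count of 20 or more, and 1.2-fold was the threshold. No test between groups was possible. Depth (31254528 and 30218308 expected counts) limits the counting error of single values only. Values also differed between the 2 libraries and between quantifications.

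The members and lists were chosen with earlier results of these data known. Every rRNA, mRNA and copy was named, tRNAs where they were highest or at 0, and other lists by their 3 highest and 2 lowest mean TPM. Lrpprc, the subunit genes named as examples and Ttr were added after their values were seen. Atp5o was left out because 2 genes share the symbol. Alternatives tried were other scalings, count minimums, TPM pseudocounts, the other quantities, added copies and leaving out each library.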

Additional observations from a re-analysis of the deposited data

How the results depend on the processing

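No paired analysis was possible because the 2 libraries form 1 group. The mitochondrial share of 5.93% became 6.51% with 3 copies added, 6.56% with 7 copies (chosen after seeing the data) and 7.19% against nuclear protein-coding counts. The rRNA share of mitochondrial counts, 77.1%, became 75.9% with posterior mean counts, 70.1% with 3 copies and 69.6% with 7. Genes past 1.2-fold fell from 2 to 1 with copies added. The copy's share in the mt-Co2, mt-Atp6 and mt-Co3 pairs was 88.0%, 30.4% and 51.7% in estimated counts and 84.3%, 62.3% and 55.3% in posterior means (added after seeing the data). The rank of mt-Co2 per kilobase, 13, became 9 in estimated counts and 2 with copies added. The cause of these moves was not tested, apart from added copies, which move values by construction. Leaving out each library gave 5.52% to 6.34% for the mitochondrial share, 76.9% to 77.2% for the rRNA share, and for the 3 pairs 97.6% to 97.8%, 67.0% to 68.2% and 64.6% to 82.7%, with mt-Co2 at rank 13 both times. All 15 genes (13 or 14 where estimated counts left fewer) were lower in replicate 2 under every scaling, minimum and pseudocount tried. Apart from leaving out a library, 45 alternatives of single values were compared, of which 18 moved by less than 1 SD, 27 by more and 0 changed sign. Shares, levels and ranks cannot change sign, so this does not mean that every order was kept. In the mt-Atp6 pair the copy held the larger part of expected counts and the smaller part of estimated counts. With 2 libraries, leaving out 1 moves a mean by a fixed part of the SD, so those ranges only restate the library values. With 1 library per animal and 2 animals, no spread within an animal was measured.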

Other observations

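Besides the 7 close copies, 13 annotated genes with an identity of 87.0% to 97.6% to a mitochondrial rRNA or mRNA were found, on several chromosomes. Together they held 51.1 expected counts in replicate 1 and 70.3 in replicate 2, against 199986 and 188295 for the 7 close copies. Their estimated counts were 147 and 133, lower rather than higher in replicate 2, against 106177 and 92601 for the close copies. Gm13340, a pseudogene on chromosome 2 with an identity of 97.6% to mt-Co1 over 1545 bases, held 25.3 and 36.5 expected counts. Gm13341, on the same chromosome with an identity of 95.9% to mt-Co2, held 22.8 and 33.8. Gm11410, on chromosome 4 with an identity of 92.9% to mt-Cytb, held 2 and 0. None of the 13 held more than 36.5 expected counts in either library. The close copies were not all high, since Gm28661 held 75007 and 64940 expected counts while Gm10222, Gm28438 and Gm28439 held at most 0.01.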
